A study of Drosophila melanogaster with 2 samples.

Results

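Jra chromatin immunoprecipitation gave, below its list of reproducible peaks, a set of 1323 weaker regions that lay away from promoters and were found again in both replicates. They were selected by signal rank and by position from the 29970 nuclear regions of the pooled list on genome build dm6. A region was taken when its signal ranked below 4000 and down to 10000, and its summit lay over 1000 bp from the transcription start site (TSS) of every protein-coding gene. It also had to overlap, by at least 1 base, 1 of the 10000 regions of highest signal in the list of each replicate. Of the 5999 nuclear regions at these ranks, 2997 were distal in this sense, and 1323 of those (44.1%, Wilson 95% interval 42.4 to 45.9) met the replicate condition. Pooled signal, rank and replicate signal chose these regions, so they are described below without a test. Sequence, gene feature class and gene identity were not used by the rule.

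The material was whole Drosophila melanogaster larvae at the wandering phase of the third instar, of both sexes together, from a transgenic line that stably expressed Jra tagged with GFP at the C-terminal end. Antibody to GFP was used for the precipitation from sonicated chromatin. A single group of 2 biological replicates, labelled 1 and 3, was studied, with no second condition. Both came from the same tagged line, each value averages all larval tissues, and control libraries were not analysed here.

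Jra is the fly homologue of Jun. It pairs through its leucine zipper with the Fos protein, encoded by kay, to form the AP-1 transcription factor, and the pair binds the short palindrome-like site TGACTCA. Jun N-terminal kinase (JNK) signalling acts through AP-1 in epithelial closure, wound repair, regeneration and stress. In flies as in mammals, many sequences bound by signal-regulated factors lie in introns or between genes, where enhancers are found.

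Windows of sequence around summits that held the site are shown first, because the site content of these weak regions is the main measurement below. Each window is the summit base with 50 bp to each side, on the plus strand, from the RefSeq Release 6 sequence (dm6), and capitals mark the AP-1 site, which reads TGACTCA or, on the other strand, TGAGTCA. The first group overlaps a stronger peak of the reproducible list. It lies in introns of cno, an adherens junction protein gene (afadin in mammals), jar (myosin VI) and mtd.

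cno, chr3R:5215788-5215888: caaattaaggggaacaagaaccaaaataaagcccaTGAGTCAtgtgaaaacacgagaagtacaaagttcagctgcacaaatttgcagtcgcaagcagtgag
jar, chr3R:24267489-24267589: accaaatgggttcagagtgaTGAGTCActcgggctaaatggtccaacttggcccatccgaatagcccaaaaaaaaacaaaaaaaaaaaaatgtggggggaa
mtd, chr3R:5303332-5303432: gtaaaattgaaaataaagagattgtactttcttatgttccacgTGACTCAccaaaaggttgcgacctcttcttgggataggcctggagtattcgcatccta

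The second group lies apart from every peak of that list. It comes from introns of Alh, Antp (a homeotic gene), Smr (a transcriptional corepressor) and rdgA (diacylglycerol kinase), and from intergenic sequence whose nearest TSS belongs to scyl, a negative regulator of TOR signalling.

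Alh, chr3R:7103218-7103318: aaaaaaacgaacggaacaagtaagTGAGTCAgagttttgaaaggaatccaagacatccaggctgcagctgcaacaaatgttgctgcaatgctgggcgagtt
scyl, chr3L:11261391-11261491: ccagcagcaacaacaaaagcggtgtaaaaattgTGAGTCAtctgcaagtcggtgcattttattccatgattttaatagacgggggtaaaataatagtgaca
Antp, chr3R:6912727-6912827: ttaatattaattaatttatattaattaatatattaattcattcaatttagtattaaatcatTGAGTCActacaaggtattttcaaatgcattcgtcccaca
Smr, chrX:12724528-12724628: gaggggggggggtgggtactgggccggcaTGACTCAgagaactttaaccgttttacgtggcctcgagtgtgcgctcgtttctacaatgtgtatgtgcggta
rdgA, chrX:8908279-8908379: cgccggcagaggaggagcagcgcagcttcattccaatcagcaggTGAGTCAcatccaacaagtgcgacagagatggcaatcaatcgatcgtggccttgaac

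The last window, from an intron of the kinase gene Lk6, holds no AP-1 site. It is shown because, by the worse of its 2 replicate ranks, it stood first of all 1323, as the next paragraphs describe.

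Lk6, chr3R:11761205-11761305: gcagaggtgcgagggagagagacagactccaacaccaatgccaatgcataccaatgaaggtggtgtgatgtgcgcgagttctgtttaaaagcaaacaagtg

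Pooled signal, the peak caller's own value as deposited by the authors, ran from 36.9 to 68.5 with a median of 52.97. The lowest signal of a nuclear peak on the reproducible list, cut by the irreproducible discovery rate (IDR), was 70.6. At the upper edge of the window, the first region inside had rank 4010 and signal 68.5, and the last distal region outside had rank 3999 and signal 68.6. At the lower edge these values were rank 9978 and signal 36.9 inside, and signal 36.8 for the next distal region outside. The region nearest to a TSS lay 1002 bp away, and the farthest region of like rank that counted as a promoter lay 1000 bp away. Both edges therefore cut a continuous range of signals. Of the distal regions in the upper 2000 ranks of the window, 77.2% (670 of 868) met the replicate condition, against 44.0% (442 of 1004) in the middle 2000 and 18.8% (211 of 1125) in the lowest 2000. The authors' deposited q-value was below 0.05 for 670 of the 1323 (50.6%), for all 1366 distal IDR peaks, and for 198 of the 1674 distal regions of the same ranks that were not found in both replicates (11.8%). The q-value broadly follows the pooled signal that set the ranks. The upper 2000 ranks held the same counts, 670 and 198, so these shares restate the ranking and give no separate support.

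In the replicate lists, whose signals have a scale of their own in each list, the overlapping regions had a median of 30.5 in replicate 1 (range 21.7 to 424) and 28.3 in replicate 3 (range 19.996 to 324). Most of the regions were thus weak in both libraries, with a few very strong ones. Of the 1323, 910 (68.8%) had a replicate region outside the top 3827, the size of the IDR list, in both replicates. In 97 regions the replicate 1 region alone was inside it, in 160 the replicate 3 region alone, and in 156 (11.8%) both were. Across the 1323 regions, Spearman's rho of the replicate signals was 0.29 and Pearson's r on the log2 scale 0.61, over regions that share libraries and were chosen by these signals.

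The strong ones lay beside an IDR peak. Of the 1323 regions, 199 (15.0%, Wilson 95% interval 13.2 to 17.1) overlapped an IDR peak, with summits 199 to 423 bp apart (median 205 bp). In 150 of these 199, the replicate region that met the condition had its summit nearer to the IDR summit than to the weaker one, in both replicates. Replicate signals of the 199 had medians of 55.5 and 50.9 in replicates 1 and 3, and their ranks had medians of 2256 and 1848. The 1124 regions that overlapped no IDR peak had median signals of 28.9 and 26.8, at median ranks of 6562 and 6295, and reached at most 69.1 and 61.3. Of the 156 regions inside the top 3827 of both replicates, 141 overlapped an IDR peak and 15 did not. Results on sequence and feature class are therefore given with and without the 199. Neighbouring regions also shared replicate regions: 222 shared theirs with another of the 1323 in replicate 1 and 234 in replicate 3.

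**Figure D1:**
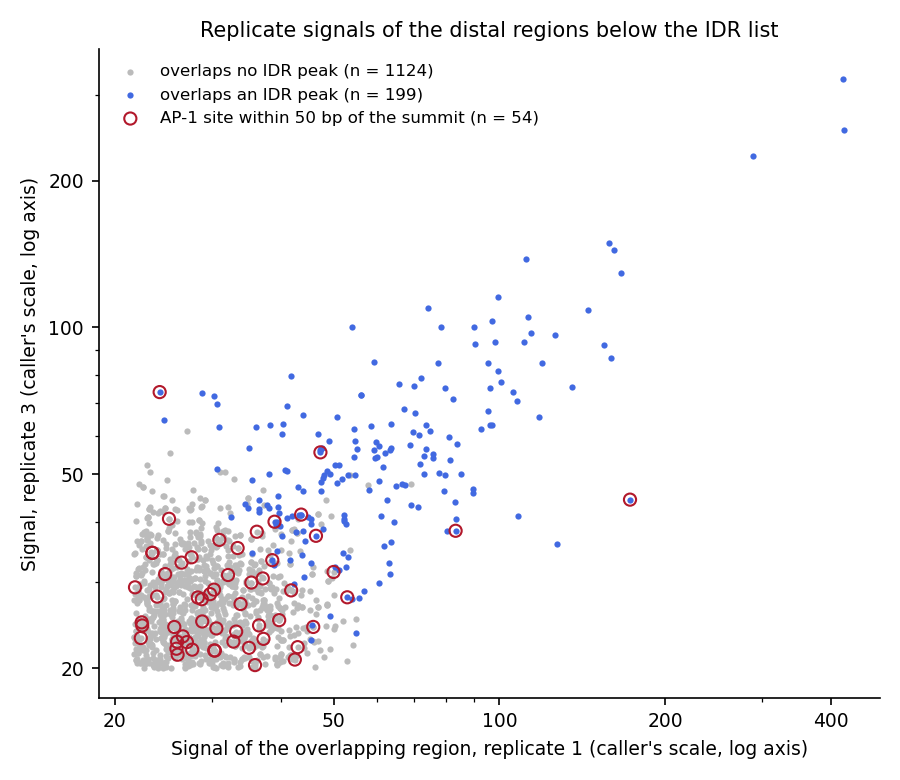
Signal of the overlapping replicate region for each of the 1323 regions, replicate 1 against replicate 3, on log axes in the peak caller's own scale. Grey points overlap no IDR peak (1124), blue points overlap one (199), and red rings mark the 54 regions with an AP-1 site within 50 bp of the summit. The blue points reach up to 424 and 324, and the grey points end at 69.1 and 61.3.

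The region that stood first by the worse of its 2 replicate ranks was at Lk6. This gene is the fly homologue of MAP kinase-interacting kinases. A summit in an intron (3R 11761255) had a pooled signal of 38.2, rank 9496, while its overlapping regions had signals of 422 in replicate 1 and 324 in replicate 3, at ranks 13 and 29. The nearest IDR summit lay 201 bp away. In an intron of osa, whose product belongs to the SWI/SNF-type Brahma complex, the pooled signal was 65.8 and the replicate signals were 424 and 254. In an intron of Tlk, which encodes a chromatin-linked kinase, they were 56.1, 289 and 225. The intronic region at puc, the phosphatase gene that switches off JNK, stood at a pooled signal of 52.6 with 162 in replicate 1 and 144 in replicate 3, and lay 204 bp from an IDR summit. All 12 regions with the best values of their worse replicate rank lay within 219 bp of an IDR summit.

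Among regions that overlapped no IDR peak, those described next were chosen after their values were seen. An intron of sog, which encodes a secreted antagonist of the ligand Dpp, had 69.1 in replicate 1 and 47.9 in replicate 3, although its summit still lay 256 bp from an IDR summit. Intergenic sequence 5398 bp upstream of dally, a heparan sulphate proteoglycan gene, had 57.8 and 47.5, 286 bp from an IDR summit. An intron of CycG, a cyclin gene, had 53.4 and 49.8, and the nearest IDR summit was 7357 bp away. Kr-h1, a zinc finger gene of the juvenile hormone response, had 49.4 and 41.1 in an intron, 2589 bp from an IDR summit. Snoo, a fly relative of the Ski and Sno corepressors, had 47.3 and 39.4, 19207 bp from one, at the highest pooled signal of the set (68.5). The CycG, Kr-h1 and Snoo regions were above the upper quartile of the set in both replicates (38.2 in replicate 1 and 35.3 in replicate 3).

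The AP-1 site was more frequent at these weak summits than in the sequence around them. TGACTCA lay within 50 bp of 54 of 1323 summits (4.08%, Wilson 95% interval 3.14 to 5.29). In equally wide windows with their centres 500 bp away, the left flank held it in 1.21% of cases and the right flank in 0.756%. The summit share was 4.15-fold the mean of the flanks (exact two-sided McNemar tests over regions, p = 4.1e-06 and 2.0e-08). These p-values cover counting over regions, since regions of the same libraries are not replicates of the experiment. Without the 199 regions that overlap an IDR peak, 45 of 1124 (4.00%, interval 3.01 to 5.32) held the site, 4.50-fold the flanks (exact McNemar p = 5.4e-06, the larger of both sides). The share among the 199 was 4.52% (9 regions, interval 2.40 to 8.37). Most of the summits therefore had no exact site nearby in either case.

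The sites sat close to the summits. Their median distance from summit to site centre was 16.5 bp, with 15 of 54 within 10 bp, in a search that reached only 50 bp. Site density was 0.423 and 0.408 per kb in the 50 bp on either side of the summit and 0.181 and 0.212 in the next 50 bp outward. With the window narrowed to 25 bp on each side 34 regions held a site, and with 100 bp on each side 81 did. Anywhere in the region, which was 440 bp wide in 1319 of 1323 cases, 126 regions held one (9.52%), and 8 held more than 1. No region had more than 1 within 50 bp of the summit. Of 8735 AP-1 sites in the genome over 1000 bp from every protein-coding TSS, 54 (0.618%) lay within 50 bp of these summits and 73 (0.836%) within 50 bp of distal IDR summits.

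**Figure D2:**
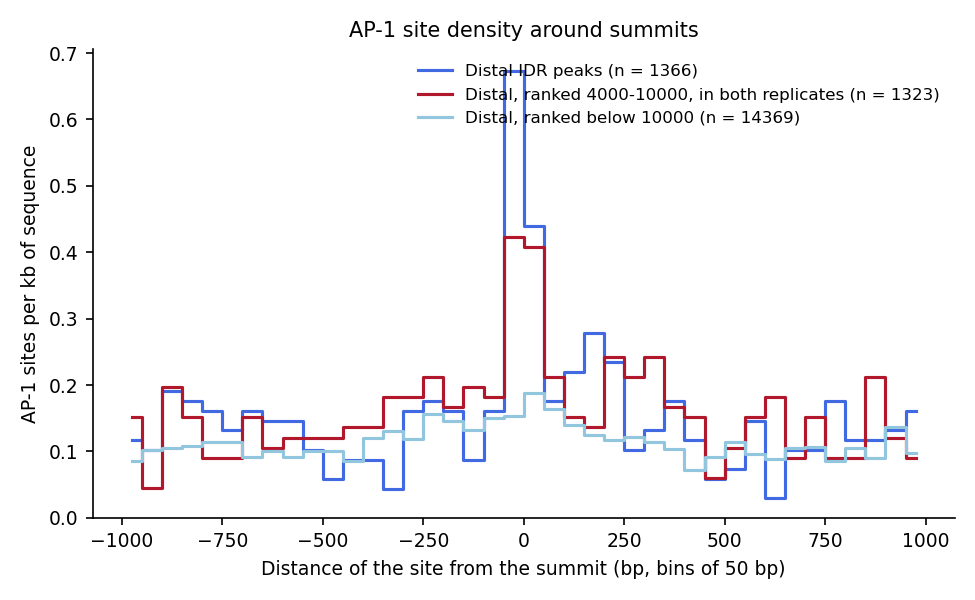
AP-1 sites per kb of sequence in bins of 50 bp by distance from the summit, for 1366 distal IDR peaks (blue), the 1323 distal regions at lower rank found in both replicates (red) and 14369 distal regions ranked below 10000 (light blue). The red line stands at 0.423 and 0.408 in the 2 bins that meet at the summit, and the blue line at 0.673 and 0.439.

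Site content was set against that of 4 other kinds of region, with Fisher's exact tests (two-sided) adjusted over the 4 by Benjamini-Hochberg. Distal IDR peaks held the site in 72 of 1366 (5.27%), and the difference from 4.08% did not pass (odds ratio 0.76, exact adjusted p = 0.23). A miss does not show that the shares are alike, as the intervals of 3.14 to 5.29% and 4.21 to 6.59% show. Promoter regions of the same ranks, which met the same replicate condition, held it in 27 of 1677 (1.61%, odds ratio 2.60, exact adjusted p = 7.4e-05). The ratio of these shares was 2.54. It was 1.597 (exact adjusted p = 0.080) for summits over 2000 bp from a TSS, and 1.63 (exact adjusted p = 0.0059) without replicate 1. Under a stricter rule, with ranks down to 7000 in the pooled list and in each replicate list, it was 1.99 (exact adjusted p = 0.12). Distal regions ranked below 10000 held it in 231 of 14369 (1.61%, odds ratio 2.60, exact adjusted p = 6.3e-08). Distal regions of the same ranks that were not found in both replicates held it in 54 of 1674 (3.23%), and the difference did not pass (odds ratio 1.28, exact adjusted p = 0.24). Those 1674 regions lay more often at the lower ranks of the window, and among the upper 2000 ranks 10 of 198 of them held the site (5.05%, interval 2.77 to 9.05), above the 3.88% of the replicated regions there. No difference in site content by support from both replicates was therefore detectable at this number of sites. The 1674 summits were themselves above their flanks, 3.60-fold (exact McNemar p = 9.1e-06, the larger of both sides).

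**Figure D3:**
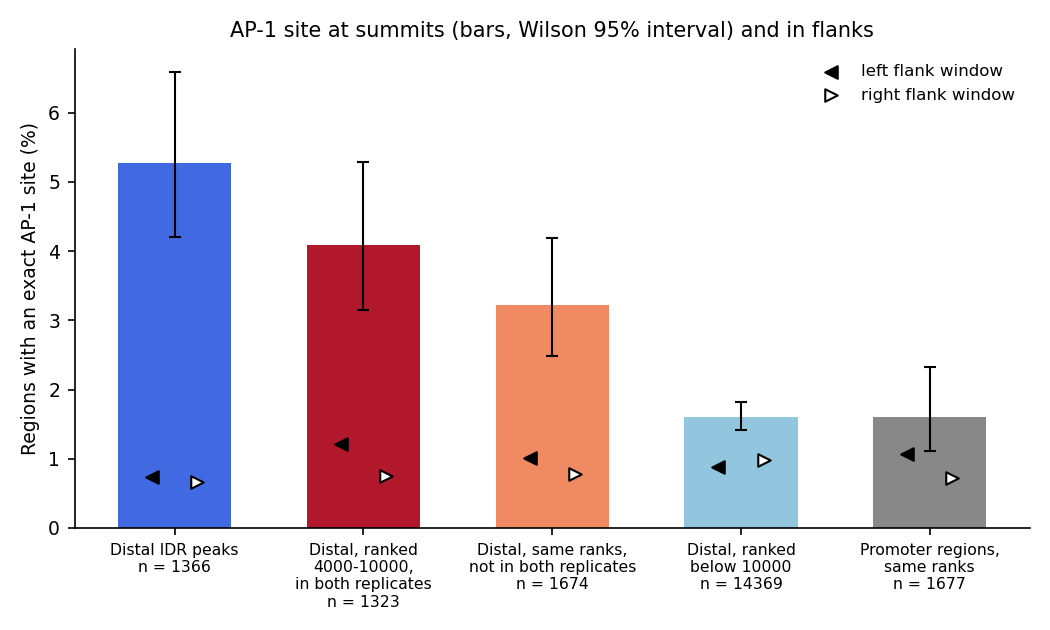
Share of regions whose summit has the exact AP-1 sequence no more than 50 bp away (bars, with Wilson 95% intervals) and in the left and right flank windows (triangles) for 5 sets of regions. The 1323 regions (red, 4.08%) stand between distal IDR peaks (5.27%) and distal regions ranked below 10000 (1.61%), and flanks lie between 0.659 and 1.21% in every set.

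Within the window, 26 of 670 regions in the upper 2000 ranks held the site (3.88%), 24 of 442 in the middle 2000 (5.43%) and 4 of 211 in the lowest 2000 (1.90%, interval 0.740 to 4.77). The intervals overlap and no order by rank is read from them. Intronic regions held it in 38 of 902 (4.21%) and intergenic regions in 13 of 351 (3.70%), which did not differ beyond counting error (Fisher's exact test, two-sided, p = 0.75). Pooled signal had a median of 51.9 in the 54 regions with the site and 52.98 in the others, replicate 1 signal 30.8 and 30.5, and replicate 3 signal 27.95 and 28.3. Regions with and without the site thus had medians close together in each list. By arm, 18 of the 54 lay on 2R, 13 on 3L, 10 each on 3R and X and 3 on 2L, of 265, 303, 282, 240 and 224 regions. None lay among the 9 regions of chromosome 4.

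Of 20 sequence motifs compared in the same way, AP-1 alone passed (exact McNemar tests, adjusted p = 8.2e-05 by Benjamini-Hochberg). It was 1 of 20 motifs (5%) called higher at summits, and 0 (0%) were called lower. At an unadjusted p under 0.05 AP-1 was again the 1 motif. Rearrangements of the AP-1 letters served as controls, and of these TCACTGA lay at 1.59% of summits and 0.907% of flanks, and AGTCACT at 0.907% and 0.869%. AGTCACT can overlap an AP-1 site, as in the jar and Antp windows above, so it is not a fully independent control. At distal IDR summits AGTCACT was itself called higher (2.12% against 0.549% of flanks, exact McNemar test, adjusted p = 0.0075). The next motif by p was GAGAGAG, bound by GAGA factor, at 2.80% of summits and 1.74% of flanks (unadjusted exact p = 0.087). CATTCCA, the site of TEAD factors such as Scalloped, stood at 2.57% and 1.70%. The GATA factor sequence AGATAAG stood at 2.04% and 1.85%, and the E box sequence CAGCTG at 4.01% and 4.23%. TATCGATA, the promoter element DRE, was present at 2 summits, and the CRE TGACGTCA, to which other bZIP proteins bind, at 5. Without the 199 regions beside IDR peaks, AP-1 was again the motif that passed (exact McNemar test, adjusted p = 0.00011). The stricter rule, with ranks down to 7000 in the pooled and both replicate lists, left 446 regions. No motif passed there (AP-1 exact McNemar test, adjusted p = 0.14), and without replicate 1 the GATA sequence passed beside AP-1.

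A search over every 7-base sequence, 8192 words once both strands were joined, gave the same word. TGACTCA had the lowest p of all and was the 1 word (0.0122%) called higher at summits (exact adjusted p = 0.034), and 0 words (0%) were called lower. Without replicate 1, 47 words were called higher and 13 lower, with TGACTCA at place 4 by p. Under the stricter rule no word was called and TGACTCA was at place 2. At an unadjusted p under 0.05, 75 words were higher and 60 lower. The next words by p were CACAGTG (3.02% of summits, 0.794% of flanks) and AGGGTAT (2.87% and 0.907%), with adjusted p of 0.52 and 0.84 in the exact tests. Words that overlap the AP-1 site by all but its last base, ATGACTC (2.12% and 0.454%) and CTGAGTC (1.59% and 0.416%), stood at place 8 and place 12. Summit windows had a mean GC content of 39.0% and flank windows 41.5%, and words were not matched on composition.

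Near matches were also counted. When 1 base other than the central one could differ, 20.6% of summits and 15.7 and 16.0% of flanks had a match (exact McNemar p = 0.0028, the larger of both sides), a count that includes the exact matches. None of the 18 words with 1 mismatch passed by itself. The highest counts were for TGACACA (1.89% of summits, 1.55% of flanks) and TTACTCA (1.74% and 1.32%). TGACGCA lay at 1.66% against 0.869% and TGACTGA at 1.66% against 1.06%. An A before and a T after the site, which extends its palindrome, was found at 8 of the 54 sites (14.8%) and at 6.97% of the 8735 distal genomic sites (Fisher's exact test against the other distal sites, p = 0.052).

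The genes described here, of those assigned 1 of the 54 regions with a site, were picked after their values were seen. The region at zip, the non-muscle myosin II heavy chain gene, had its summit in an intron (2R 25001836) with a pooled signal of 58.2, 45.9 in replicate 1 and 24.3 in replicate 3. At cno the summit had 63.3, with 173 and 44.3, so replicate 1 was far higher there, and an IDR summit lay 318 bp away. The region at jar had 68.4, with 47.3 and 55.4, and that at cindr, a CIN85 family adaptor gene, 47.4, with 83.2 and 38.3. Both lay about 200 bp from an IDR summit (202 and 199 bp). Shrm, the fly Shroom gene, had 56.0, with 36.6 and 24.5, and stood 8259 bp from an IDR summit. The intergenic region nearest to Act5C, an actin gene, had 55.3, with 37.2 and 22.98.

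Src42A is a Src family kinase gene upstream of JNK in epithelial closure. A site lay 5 bp from a summit in its intron (2R 5994009), 1017 bp downstream of a TSS. The pooled signal was 60.6, with 27.6 in replicate 1 and 33.8 in replicate 3. No IDR peak was assigned to the gene, and the nearest IDR summit lay 19936 bp away. At drk, the Grb2 adaptor gene of receptor tyrosine kinase signalling, the values were 53.5, 26.4 and 32.9. At ds, which encodes a protocadherin of the Hippo pathway, they were 60.2, 49.9 and 31.5. The site-bearing region of shn, a zinc finger gene of Dpp signalling, had 66.0, 36.2 and 38.1, and that of br, an early ecdysone gene, lay in a 3′ UTR with 47.8, 26.6 and 23.3. Of the 54 regions, 21 lay over 5000 bp from every IDR summit.

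The regions were mainly intronic. Introns of protein-coding genes held 902 of 1323 summits (68.2%, Wilson 95% interval 65.6 to 70.6), where 45.6% of all distal genome bases are intronic. Intergenic sequence held 351 (26.5%, against 35.4% of bases), 3′ UTRs 54 (4.08%, against 5.54%), 5′ UTRs 10 (0.756%) and coding exons 6 (0.454%, against 12.9%). The 6 coding exon summits are few against the share of coding sequence in the genome, a contrast given without a test. Annotated transposable elements held 3 summits (0.227%), though they make up 7.20% of distal bases. A TSS of a non-coding gene lay within 1000 bp of 115 summits (8.69%).

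Against distal IDR peaks, 1 class differed. Summits in 3′ UTRs made up 4.08% of these regions and 27 of 1366 IDR peaks (1.98%, odds ratio 2.11, Fisher's exact test, adjusted p = 0.0075 over 5 classes). The difference did not pass in the upper 2000 ranks of the window or under the stricter rule. The ratio of shares was 2.07 in the whole set and 1.43 (exact adjusted p = 0.78) in those upper ranks. It was 0.794 (exact adjusted p = 0.69) with ranks down to 7000 in the pooled and both replicate lists. The share was 4.09% in the regions that overlap no IDR peak and 4.02% in those that do. It was 5.73% in distal regions of the same ranks not found in both replicates and 10.4% in distal regions ranked below 10000. The difference in intron share did not pass (68.2 and 67.0%, odds ratio 1.06, exact p = 0.51), nor, after adjustment, did that in intergenic share (26.5 and 30.0%, exact adjusted p = 0.12). The intron share was above that of distal regions ranked below 10000 (59.8%, odds ratio 1.44, exact adjusted p = 2.7e-09 over 4 comparisons), while the difference from regions not found in both replicates (64.6%) did not pass (exact adjusted p = 0.053). Among these distal sets, 3′ UTR shares were thus lowest in IDR peaks and highest beyond rank 10000, where intron shares were lowest. The regions found and not found in both replicates cover the same ranks, so the order of the sets is not one of rank alone.

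**Figure D4:**
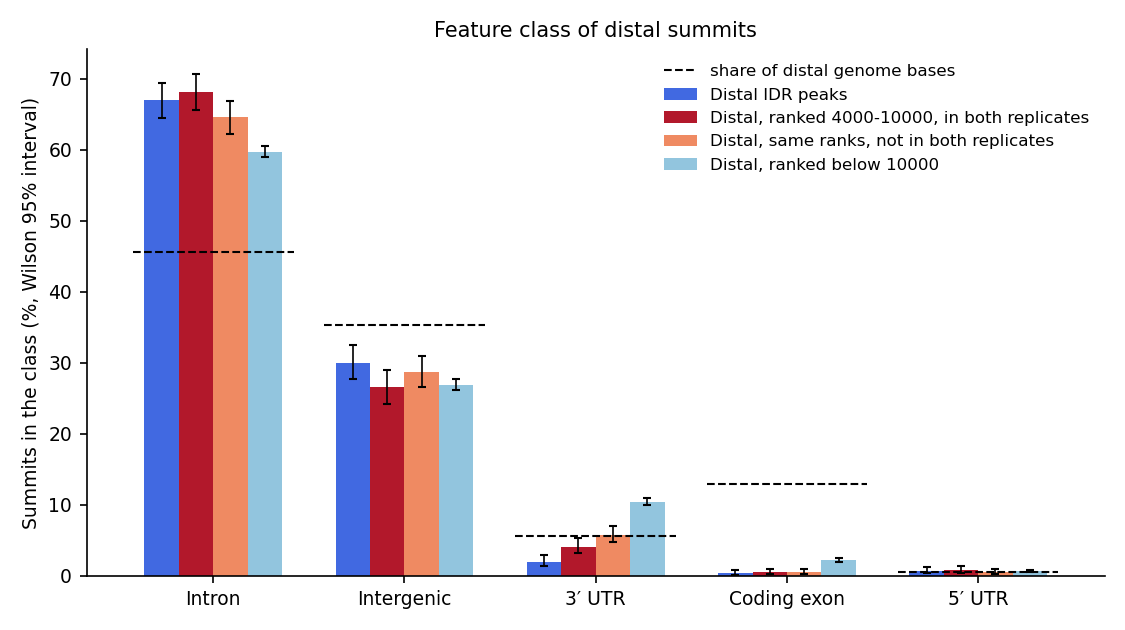
Share of summits in each feature class for 4 sets of distal regions, with Wilson 95% intervals, and the share of distal genome bases in each class (dashed lines). Introns hold 68.2% of the 1323 regions (red) against 45.6% of bases, and the 3′ UTR share is 1.98% in distal IDR peaks and 10.4% in regions ranked below 10000.

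Density on the large arms ranged little, at 12.1 per Mb of distal sequence on 2L, 13.4 on 2R, 13.4 on 3L, 11.0 on 3R and 12.7 on X. Chromosome 4 had 9 regions, or 7.99 per Mb. Many of the regions lay near IDR peaks. An IDR summit lay within 1000 bp of 289 regions (21.8%), within 2000 bp of 465 (35.1%) and within 5000 bp of 749 (56.6%). The median distance to an IDR summit was 3759 bp. These counts and this median include the 199 regions that overlap an IDR peak, with summits 199 to 423 bp away. All 199 are therefore among the 289. The median distance to the nearest TSS was 3694 bp, close to the 3782 bp of distal IDR peaks.

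Each region was assigned to the genes whose body holds its summit and to the gene of the nearest TSS. In this way 975 of 13945 protein-coding genes (6.99%) had at least 1 region. These genes were long, with a median of 11304 bp against 2166 bp over all genes, and 651 of the 975 were in the longest of 4 length groups of nearly equal size. In that group 18.7% of genes were assigned a region, against 2.84% in the shortest group, so both shares serve as background for the lists. For 214 of the 972 summits inside a gene body, the nearest TSS belonged to another gene. Of the 975 genes, 680 (69.7%) were also assigned an IDR peak, against 19.7% of all genes and 36.7% of the longest group, and 295 were not. This share includes the 199 regions that overlap an IDR peak. A region so near an IDR summit will often be assigned the same gene, so part of the excess follows from the overlap. The share without the 199 was not counted.

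Most genes had 1 region (624), 198 had 2 and 153 had more, with regions that overlap each other counted separately. The highest number was at Eip75B, a nuclear receptor gene of the ecdysone response, with 14 regions, 13 of them in the gene body of 113744 bp. Their pooled signals ran from 37.4 to 65.0, replicate 1 signals from 23.4 to 90.0 and replicate 3 signals from 20.3 to 100.1, and 4 of the 14 overlapped an IDR peak. None held an AP-1 site within 50 bp, and 12 distal IDR peaks were assigned to the same gene. The gene hry, which encodes the Hairy repressor, was the nearest gene or host of 12 regions, with signals from 37.1 to 66.7. The regulator genes tara and shn had 8 each in the body, and tara, at 34679 bp, carried 23.1 per 100 kb against 1.08 over the summed length of all genes. Tlk, Eip74EF and pyd, the fly gene for the junction protein ZO-1, had 6 each in the body. The 6 at pyd were all outside IDR peaks, with replicate 1 signals from 23.1 to 32.9 and replicate 3 signals from 20.8 to 29.1.

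Genes with 5 regions in the body included transcriptional regulators, and also heca (assigned 8 in all), CG46385, Tet, beat-Ib and SKIP. Snoo, the ETS factor gene pnt, the repressor gene cic, the ecdysone receptor gene EcR, the homeobox gene hth, psq, the coactivator gene tai, Eip78C, the bZIP factor gene CrebA and the chromatin remodeller gene Mi-2 each had 5. Su(Tpl), an elongation factor gene that overlaps Mi-2, shared the same 5. At CrebA, only 17820 bp long, that came to 28.1 regions per 100 kb, with replicate 1 signals from 21.8 to 27.96 and replicate 3 signals from 22.0 to 34.5, and none overlapped an IDR peak. The CrebA regions with summits at 3L 15537960 and 3L 15538210 overlapped each other and shared their replicate regions. Eip78C, shn and Eip75B also held such pairs, so these counts and densities include regions that are not separate. At pnt, 5 regions overlapped no IDR peak and ran from 43.5 to 67.8 in pooled signal, and 1 distal IDR peak was assigned to the gene. At tai, pooled signals ran from 48.5 to 58.8, and at psq from 37.3 to 60.3, again with no IDR overlap. At EcR, 2 of 5 regions overlapped an IDR peak, and 11 distal IDR peaks were assigned to it. Regions gathered at 1 gene thus included both regions beside IDR peaks and regions apart from them.

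The JNK pathway held regions at 8 of 25 genes (32.0%, Wilson 95% interval 17.2 to 51.6), read against 6.99% of all genes and 18.7% of the longest group. The lists overlap, and their genes were chosen with results of these data known, so the counts are a description with no test. Src64B, the other Src kinase gene, had 2 intronic regions of pooled signal 56.7 and 54.2, with 30.9 and 24.5 in replicate 1 and 25.3 and 27.7 in replicate 3. At wnd, a kinase gene that activates JNK signalling in neurons, 2 regions of signal 38.0 and 36.9 lay 201 and 200 bp from an IDR summit. Tab2 had 57.4, with 24.7 and 30.5, in a 3′ UTR. At raw the values were 50.3, 23.1 and 29.6, and at aop, an ETS repressor gene, 46.1, 32.1 and 35.0. At kay, the Fos gene, an intronic region of signal 40.5 had 53.9 in replicate 1 and 27.8 in replicate 3, 265 bp from an IDR summit. Jra itself had none. Src42A was the 1 of the 8 genes with an AP-1 site at its region and also the 1 with no IDR peak.

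In the list of known JNK and AP-1 targets, 9 of 24 genes were assigned a region (37.5%, interval 21.2 to 57.3). The zip gene had 3, of signals 59.4, 58.2 and 41.3, and the first of these lay 223 bp from an IDR summit. Those of 58.2 and 41.3 overlapped each other and shared their replicate regions. Socs36E, an inhibitor of JAK-STAT signalling, had 2, of signals 65.2 and 49.6. Mmp2, a matrix metalloproteinase gene, had 52.7 in an intron and 52.0 in intergenic sequence, with 25.5 and 39.0 in replicate 1 and 23.5 and 24.4 in replicate 3. The filamin gene cher had 68.1, with 27.3 in replicate 1 and 39.98 in replicate 3, and was the 1 of these 9 genes with no IDR peak. The nearest IDR summit to it was 33620 bp away. The nuclear receptor gene ftz-f1 had 66.3, with 49.3 and 21.9, scaf 53.6, with 31.3 and 22.7, and hid, a pro-apoptotic gene, 39.6, at 215 bp from an IDR summit.

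Of 18 ecdysone response genes, 10 were assigned a region (55.6%, interval 33.7 to 75.4), the highest share among 22 lists. They carried 45 regions in all. Those inside gene bodies came to 5.72 per 100 kb, against 1.08 over all genes. Besides Eip75B, Eip74EF had 6, EcR and Eip78C 5 each, and Eip93F, br and Hr4 4 each. Their highest pooled signals were 64.7, 67.1, 58.1, 67.8, 61.7 and 60.7. Some regions at these genes lay beside IDR peaks, as at Hr4 (60.7, with 64.7 and 47.3, 205 bp away) and br (61.7, with 81.1 and 53.5, 251 bp away). At Eip78C all 5 stood apart from IDR peaks, with replicate 1 signals from 23.7 to 28.4. The gene shd, an enzyme gene of ecdysteroid synthesis, had 49.6 and no IDR peak.

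Of 20 EGFR pathway genes, 10 were assigned a region (interval 29.9 to 70.1%). After pnt and cic came aos, a secreted inhibitor gene, with 3, and the receptor gene Egfr and the ligand gene vn with 2 each. The region in an intron of Egfr had 68.2, with 41.8 and 36.4, and those of vn had 51.6 and 47.5, at 69835 and 48439 bp from an IDR summit. Of 16 genes for bZIP factors, 7 had a region (43.8%), namely CrebA, cnc (3), Pdp1, slbo and vri (2 each), CrebB and kay. The 2 regions of slbo, a C/EBP gene, had 55.8 and 43.4 and shared their replicate regions, 71116 and 71347 bp from an IDR summit. Both lists were also dense for their length, with 4.11 and 5.79 regions per 100 kb of gene body, against 1.08 over all genes. Most lists were above that value, with 5.01 for fat body genes, 4.98 for Dpp and activin and 4.46 for Hedgehog. Below it stood neuronal genes (0.367) and the trachea and epidermal barrier, heat shock and ribosomal protein lists (0 each).

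Of the signalling lists, Hedgehog had 5 of 11 genes (45.5%), Hippo 6 of 15 (interval 19.8 to 64.3%), Notch 5 of 15 and Wingless 6 of 18 (33.3% each), Dpp and activin 5 of 17 (29.4%) and JAK-STAT 2 of 11 (18.2%). In the Hedgehog list the glypican gene dally had 5 regions, the receptor gene ptc 3, and ci and dlp 2 each. In the Hippo list ex had 2, of which 1 stood at 56.6 with 96.9 and 102.9 in the replicates, 201 bp from an IDR summit. Diap1, an apoptosis inhibitor gene, had 67.7, with 44.4 and 24.3, and mats had 62.8 and no IDR peak. In the Notch list mam had 4 and N 1. In the Wingless list the co-receptor gene arr had 3, and fz2, nkd and sgg 2 each. After shn, the Dpp list had Dad, an inhibitory Smad gene, and brk, a repressor gene, with 3 each. Stat92E had 61.1 and no IDR peak.

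The other lists follow in order of share, with intervals that overlap and no test between lists. Actin, adhesion and matrix genes had 8 of 28 (28.6%), with 4 regions at the integrin gene mew and 3 each at zip, ena, Act5C, Fas3 and the integrin gene if. Fat body genes had 5 of 18 (27.8%), with 3 at Lsd-2, a lipid droplet protein gene, and 2 at the lipase gene bmm, of signal 53.4 and 45.0. The 2 at bmm overlapped each other and shared their replicate regions. Fbp1, a fat body receptor gene, had 1 in a coding exon, of signal 59.3, with 39.9 and 21.1. Disc patterning genes had 8 of 30 (26.7%), led by hth with 5 and Antp with 3, of which 1 held an AP-1 site (58.8, with 32.1 and 31.1). Muscle genes had 5 of 19 (26.3%), with 4 at Zasp52 and 2 at Mef2. Pairs that shared their replicate regions also occurred at mew, zip, Fas3, Lsd-2, hth, Zasp52, Mef2 and the integrin gene if. The counts therefore include regions that are not separate. Neuronal genes had 5 of 23 (21.7%) and 0.367 regions per 100 kb, below the 1.08 of all genes, with a median gene length of 40368 bp. Apoptosis genes had 3 of 15 (interval 7.05 to 45.2%) and immune genes 3 of 21 (14.3%).

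In 4 lists, 1 gene or none had a region. Cytoplasmic ribosomal protein genes had 0 of 32 (Wilson upper bound 10.7%) and heat shock genes 0 of 16 (upper bound 19.4%). Respiratory chain and ATP synthase genes had 1 of 28 (3.57%), ATPsynbeta, and trachea and epidermal barrier genes 1 of 19 (5.26%), vvl. IDR peaks of any class were assigned to 19, 8, 5 and 6 genes of these lists. Median gene length was 1429 bp for ribosomal protein genes and 2237 bp for heat shock genes, against 32241 bp for the ecdysone list, and the part of length in these counts was not tested.

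**Figure D5:**
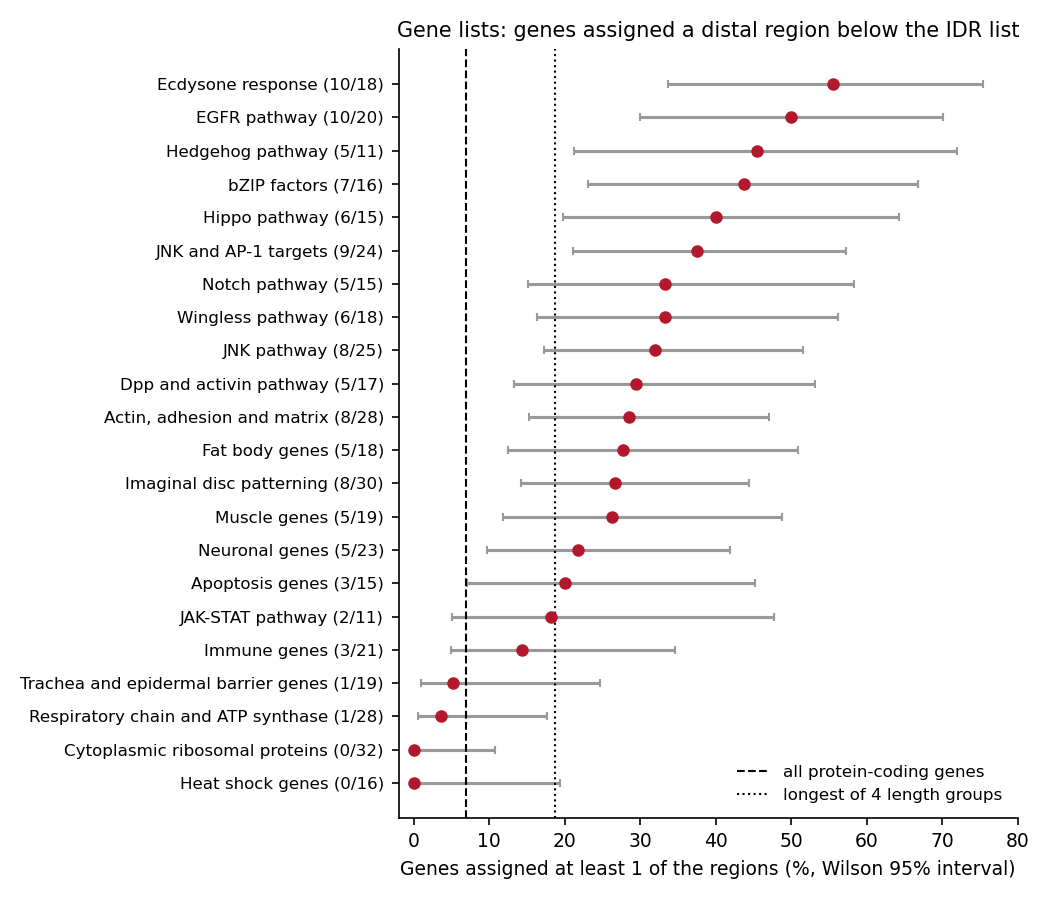
Share of genes in each of 22 lists that were assigned at least 1 of the 1323 regions, with Wilson 95% intervals, beside the share over all protein-coding genes (6.99%, dashed) and over the longest of 4 length groups (18.7%, dotted). Counts beside each name give genes with a region over genes matched, from 0 of 16 heat shock genes to 10 of 18 ecdysone response genes.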

How the data were processed

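Anti-GFP ChIP-seq regions of 2 biological replicates (labelled 1 and 3, 1 group) were used. The authors deposited region lists per replicate, for both replicates pooled and after IDR, on 2 builds, and the dm6 lists were used here. Each region has a signal value, as the authors deposited it, whose scale differs from list to list. Its −log10 q-value was also deposited by the authors. Peak caller, aligner and cut-off of the IDR step: not given in the sources used here. No read counts were in the lists, so depth is unknown and no interval on a signal was made.

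From these lists, ranks were counted by signal over all pooled regions, and a replicate region was the overlapping one of highest signal. Ensembl release 115 gave gene models and RefSeq Release 6 the sequence, with chromosome lengths that fit dm6. A summit got the first class it met of 5′ UTR, 3′ UTR, coding exon and intron, and was otherwise intergenic. Motif matches were counted on either strand up to 50 bp from the summit and in equal windows centred 500 bp away. McNemar and Fisher tests were exact and two-sided with Benjamini-Hochberg adjustment, called under 0.05. In the motif and word comparisons p was set to 1 where the flanks differed from the summit in opposite directions. The word test was tested on simulated data. Wilson 95% intervals cover counting error over regions or genes. Software was Python 3.11.15, numpy 2.4.6, pandas 2.3.3, scipy 1.17.1 and matplotlib 3.10.9.

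The rule for regions, the motifs, the 22 gene lists and the alternatives were chosen with earlier results of these data known. Genes named are hosts or nearest genes of the 12 regions with the best worse replicate rank, of 12 likewise with an AP-1 site, the 12 genes with most regions, up to 4 genes per list, and Jra, kay and puc. The ranking without IDR overlap, hry, psq, tai, Eip78C, pyd, Shrm, drk, Act5C, shd, Stat92E, mats and other genes beyond the rule were named after their values were seen. A total of 8 list symbols had no match and were left out. The unmatched symbols were Star, argos, Dl, mir-bantam, phm, Bar, dp and Acbp. For 1 region with an AP-1 site that this rule covers, the gene and sequence are not reported here.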

Additional observations from a re-analysis of the deposited data

How the results depend on the processing

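The AP-1 share at summits was 2.57- to 4.86-fold that of flanks and passed the single exact test against flanks, not adjusted over motifs, in every alternative run: each replicate alone, stricter ranks, wider and narrower windows, other flanks, other TSS rules, 1 region per stretch, the upper ranks and the set without IDR overlap. With the list of 1 replicate alone at the same ranks, where the other replicate sets no condition, the regions numbered 2971 to 3019. The ratio to distal IDR peaks then passed at 0.587 to 0.682, the intron share was 0.938 to 0.998 of theirs (exact p = 0.0071 and 0.94, below instead of above 1), and the panel called 1 to 2 motifs (GATA without replicate 1) and 7 to 60 words. Stricter ranks, down to 7000 in the pooled and both replicate lists, left 446 regions, with 0 motifs and 0 words called. The promoter ratio was then 1.99 (exact adjusted p = 0.12), and the ratio to distal regions not found in both replicates was 0.961, below 1. Summits over 2000 bp from a TSS gave a promoter ratio of 1.597 (exact p = 0.080). The upper 2000 ranks alone, added after the data were seen, gave 670 regions, a ratio of 0.768 to regions not found in both and an intron ratio of 0.994. The 3′ UTR ratio to IDR peaks, also retested afterwards, was 0.794 at stricter ranks and 1.43 in the upper 2000 (exact adjusted p = 0.69 and 0.78), and it passed at 1.94 to 3.35 in the other 5 retests. The causes were not tested. Leaving out regions that overlap an IDR peak, also added afterwards, changed no call among the AP-1, intron and 3′ UTR comparisons, motifs and words. No paired analysis was possible because there was 1 group. Read depth is unknown, 54 sites limit every share by kind or rank of region, and summits lay in the middle of regions of fixed width, which limits how finely sites are placed.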

Other observations

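Distal regions ranked below 10000 were counted in 3 bins of rank, by whether they overlapped the 10000 strongest regions of both replicates. Down to rank 15000, 6 of 285 that did held an AP-1 site within 50 bp (2.11%, Wilson 95% interval 0.968 to 4.52), and 67 of 2992 that did not (2.24%, interval 1.77 to 2.83). From there to rank 20000 the counts were 6 of 187 (3.21%, interval 1.48 to 6.82) and 48 of 3344 (1.44%, interval 1.08 to 1.90). Below rank 20000 they were 11 of 213 (5.16%, interval 2.91 to 9.01) and 93 of 7348 (1.27%, interval 1.03 to 1.55). No test was made. Of all 14369 distal regions ranked below 10000, 245 (1.71%) overlapped an IDR peak, and the part of such overlaps in these values was not tested. Overlap with an IDR peak was also common at promoters, at 378 of 1677 promoter regions of the same ranks (22.5%), and rare among distal regions not found in both replicates, at 3 of 1674 (0.179%). An IDR peak is by definition reproducible between replicates, so the low count among the 1674 largely follows from how they were chosen.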
